A study of Mus musculus with 9 samples.

Results

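The 38 genes described here encode the machinery that copies DNA in S phase: the proteins that license and fire replication origins, the MCM2-7 helicase, the GINS complex, the replicative polymerases and primase, the sliding clamp and its loader, replication protein A, the enzymes that finish the lagging strand, the enzymes that supply deoxynucleotides, and the histone messenger binding protein SLBP. They were chosen by name from this shared function and not by a rule on measured values, but with earlier results of these data known. The files hold all 38 of them among 25239 gene symbols. RNA was sequenced from E14 cells, a mouse embryonic stem cell (ESC) line whose strain is labelled 12910la, grown in serum with leukemia inhibitory factor. The control, *Rbbp4*+/+, is E14 with unmutated *Rbbp4*. The first mutant, *Rbbp4* Ins/Ins, carries a small in-frame insertion in *Rbbp4* on both alleles, and the second, *Rbbp4* Ins/Del, carries the same insertion on one allele and a small in-frame deletion on the other. Both were made with CRISPR-Cas9, each mutant line is 1 clone, and each of the 3 groups has 3 libraries.

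Replication starts when the origin recognition complex, CDC6, and CDT1 load the MCM2-7 ring onto DNA in G1. In S phase, CDC45 and GINS join MCM2-7 to form the active helicase, polymerase alpha and primase start each new strand, and polymerases epsilon and delta extend it with the help of the clamp PCNA. Many of these genes are transcribed as cells pass from G1 into S phase, under the E2F factors and the pocket proteins of the retinoblastoma family. RBBP4 is a histone-binding WD40 protein of several chromatin complexes, among them CAF-1, which places histones behind the fork, and the DREAM complex, in which it sits with E2F and pocket proteins. Mouse ESCs divide quickly and spend much of their cycle in S phase.

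The libraries held between 15838064 and 21366868 counted reads, and each of the 38 genes had between 239 and 11139 reads in every library, so none was lost to the filter on low counts. *Rbbp4* itself had 9932, 9965, and 10117 normalized counts across the control libraries, against 5485, 5551, and 5776 in *Rbbp4* Ins/Ins cells, and 10129, 10344, and 10603 in *Rbbp4* Ins/Del, where a normalized count is the read count scaled to the same effective library size. It was lower in every *Rbbp4* Ins/Ins library than in any control library and close to the control in *Rbbp4* Ins/Del. Gene counts do not show which allele a read came from, so they do not check the mutations themselves. A difference that comes from the mutation cannot be told apart from one that came with the cloning of a line.

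DNA replication genes were more often higher than lower in both mutants, mostly by small amounts. In *Rbbp4* Ins/Ins, 22 of the 38 (57.9%) rose against the control and 0 fell at an adjusted p of at most 0.01 (quasi-likelihood test of edgeR, with p-values adjusted by Benjamini-Hochberg over 14125 genes), where 29.0% of all genes tested rose and 29.4% fell. With the same test, 2 were lower at an unadjusted p under 0.05, and DESeq2 called 0 lower. In *Rbbp4* Ins/Del, 20 of the 38 (52.6%) rose and 2, *Mcm4* and *Pold1*, fell, where 30.6% of all genes tested rose and 31.9% fell. There 5 were lower at an unadjusted p under 0.05, scaling by total counts also gave 5, and DESeq2 called 1 lower. The median log2 fold change of the 38 genes was 0.17 in *Rbbp4* Ins/Ins cells and 0.15 in *Rbbp4* Ins/Del, whereas that of all tested genes was 0.0038 and -0.011. Both comparisons use the same control libraries and so are not independent of each other.

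Summed over the 38 genes, the control libraries held 6725, 6697, and 6529.6 CPM (reads scaled by effective library size), against 7285, 7299.7, and 7369 for *Rbbp4* Ins/Ins and 7267, 7383, and 7362 for *Rbbp4* Ins/Del. Every mutant library lay above every control library, by 10.03% in the mean of *Rbbp4* Ins/Ins and 10.3% in that of *Rbbp4* Ins/Del. The sum weighs abundant genes most, and its rise was uneven over the roles. It was smallest for the MCM2-7 genes (2.95% and 2.26%), which made up 2696 of the 6651 CPM in the control mean. It was largest for RPA and the lagging strand genes (24.2% and 33.5%). In RNA from whole cultures, more cells in which a gene is active and more RNA per cell cannot be told apart. In 23 of the 38 genes every *Rbbp4* Ins/Ins library was above every control library and in 3 every one was below, where 34.9% and 34.2% of all tested genes did so. In *Rbbp4* Ins/Del these were 20 and 4 genes, where 35.9% and 36.9% of all tested genes did so. Of the 38 genes, 2 rose by more than 1.5-fold in *Rbbp4* Ins/Ins, *Rpa1* and *Gins3*, and 2 in *Rbbp4* Ins/Del, *Rpa1* and *Tk1*. Of all 14125 tested genes, 4186 and 4663 changed by more than 1.5-fold in either direction. Changes of this size were thus less frequent among the 38 genes than among all tested genes. The median absolute log2 fold change was 0.17 and 0.15 for the 38 genes, and 0.30 and 0.34 for all tested genes.

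**Figure D1:**
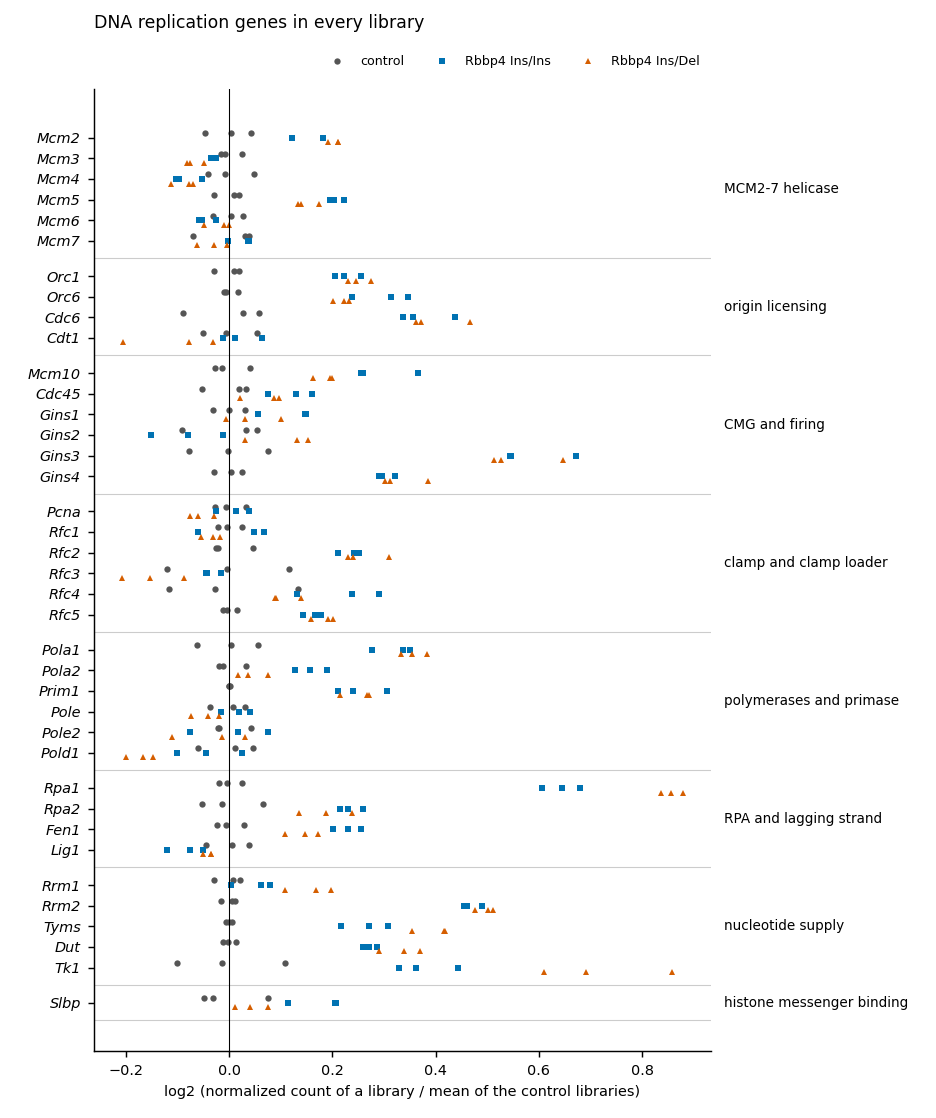
Each of the 38 DNA replication genes in each of the 9 libraries, as the log2 ratio of the normalized count to the mean of the 3 control libraries (x axis), grouped by role. Circles are control, squares *Rbbp4* Ins/Ins, and triangles *Rbbp4* Ins/Del libraries. *Rpa1* lies farthest to the right in both mutants, *Tk1* is spread between the mutants, and *Mcm3*, *Mcm4*, *Mcm6*, and *Mcm7* stay near or below the control.

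Promoter sequences are shown for the 5 genes with the largest mean change over both mutants, *Rpa1*, *Gins3*, *Tk1*, *Rrm2*, and *Cdc6*, and for *Pcna*, which passed the test in neither mutant. They are the 150 bases before the RefSeq transcription start on GRCm38 (mm10), read 5′ to 3′ on the strand of the gene. The gene spans given below come from GENCODE and can begin before the RefSeq start. The *Cdc6* stretch lies wholly within its gene span, and those of *Gins3*, *Tk1*, *Rrm2*, and *Pcna* lie partly within theirs. Capitals mark E2F-type letters (TTTCCCGC, TTTCGCGC, TTTGCCGC, or TTTGGCGC on either strand) and the CCAAT box (CCAAT, or ATTGG on the other strand).
*Rpa1* (chr11:75348384-75348533, minus strand): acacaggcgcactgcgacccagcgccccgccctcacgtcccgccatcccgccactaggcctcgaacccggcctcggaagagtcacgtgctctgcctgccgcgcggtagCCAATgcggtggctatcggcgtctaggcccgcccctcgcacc
*Gins3* (chr8:95633409-95633558, plus strand): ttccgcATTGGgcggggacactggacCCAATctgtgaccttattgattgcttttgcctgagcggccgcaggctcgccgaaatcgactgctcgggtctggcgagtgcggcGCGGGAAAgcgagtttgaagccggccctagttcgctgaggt
*Tk1* (chr11:117826015-117826164, minus strand): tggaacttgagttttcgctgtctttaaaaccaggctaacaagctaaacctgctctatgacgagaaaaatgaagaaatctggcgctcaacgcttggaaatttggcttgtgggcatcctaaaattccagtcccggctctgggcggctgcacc
*Rrm2* (chr12:24708104-24708253, plus strand): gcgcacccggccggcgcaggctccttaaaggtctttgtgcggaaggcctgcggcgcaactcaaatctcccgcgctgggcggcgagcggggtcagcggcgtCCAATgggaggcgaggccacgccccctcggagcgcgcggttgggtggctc
*Cdc6* (chr11:98908001-98908150, plus strand): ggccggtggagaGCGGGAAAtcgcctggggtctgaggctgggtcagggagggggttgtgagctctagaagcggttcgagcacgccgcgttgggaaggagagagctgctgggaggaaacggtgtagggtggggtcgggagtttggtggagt
*Pcna* (chr2:132253181-132253330, minus strand): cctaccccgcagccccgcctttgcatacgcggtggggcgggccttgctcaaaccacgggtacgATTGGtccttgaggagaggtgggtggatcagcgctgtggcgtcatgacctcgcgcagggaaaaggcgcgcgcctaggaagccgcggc
E2F-type letters stand in the stretches of *Gins3* and *Cdc6*, a CCAAT box in those of *Rpa1*, *Gins3*, *Rrm2*, and *Pcna*, and neither in that of *Tk1*. A match of letters is a description and not a bound site.

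RefSeq promoter windows, from 250 bases before to 50 bases after a start, were given for 32 of the 38 genes, and not for *Mcm4*, *Gins1*, *Gins2*, *Gins4*, *Rfc2*, and *Pole*. The E2F-type letters stood in a window of 13 of the 32 genes (40.6%) and in 2.27% of all 32851 windows. The first is a share of genes and the second a share of windows, and by window the letters stood in 13 of the 36 windows of these genes. *Cdc6*, *Cdt1*, *Gins3*, *Lig1*, *Mcm3*, *Mcm5*, *Mcm6*, *Mcm7*, *Orc1*, *Pola1*, *Pold1*, *Pole2*, and *Rfc3* held them. The CCAAT box stood in 20 of the 32 (62.5%), or 21 of their 36 windows, and in 37.4% of all windows. The CHR letters TTTGAA, on either strand, stood in 4 of the 32 (12.5%), or 4 of their 36 windows, and in 17.9% of all windows. Of the 13 genes with E2F-type letters, 5 rose in *Rbbp4* Ins/Ins cells and 5 in *Rbbp4* Ins/Del, where 29.0% and 30.6% of all tested genes rose, and 1, *Pold1*, fell in *Rbbp4* Ins/Del. Their median log2 fold changes were 0.022 and -0.032. Of the other 19 genes with a window, 15 and 13 rose and 0 fell in either mutant, with medians of 0.23 and 0.19. No test of this split was made.

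Of the 4 origin licensing genes, all but *Cdt1* rose in both mutants, where 29.0% and 30.6% of all tested genes rose. The summed level of the 4 genes was 409 ± 6.002 CPM (SD, n = 3) in control cells, 469 ± 3.54 in *Rbbp4* Ins/Ins cells, and 454 ± 6.95 in *Rbbp4* Ins/Del. *Cdc6* encodes the ATPase that brings the helicase to the origin recognition complex, and lies at chr11:98907801-98923940 (mm10) on the plus strand. It had 1185, 1071, and 1161 normalized counts across the control libraries, against 1439, 1458, and 1542 in *Rbbp4* Ins/Ins cells, and 1573, 1463, and 1473 in *Rbbp4* Ins/Del. Every mutant library lay above every control library, and the means were 1139 ± 60.2 (SD, n = 3), 1479.7 ± 55.1, and 1503 ± 61.1. The log2 fold change was 0.37 (standard error 0.0457, edgeR adjusted p = 3.2e-09) in *Rbbp4* Ins/Ins cells and 0.40 (standard error 0.0456, edgeR adjusted p = 6.6e-10) in *Rbbp4* Ins/Del.

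*Orc6*, the smallest subunit of the origin recognition complex (chr8:85299632-85308278, plus strand), had 1535, 1559.8, and 1531 normalized counts across the control libraries. The counts were 1915, 1961, and 1817 in *Rbbp4* Ins/Ins cells and 1798, 1771, and 1809.6 in *Rbbp4* Ins/Del. All mutant libraries were above all control libraries, with log2 fold changes of 0.30 (standard error 0.0386, edgeR adjusted p = 1.1e-08) and 0.22 (standard error 0.0390, edgeR adjusted p = 5.8e-06). *Orc1*, the ATPase subunit of the same complex, also rose, by log2 0.23 and 0.25, and 10.8% of its exonic length overlaps *Gm12743* on the opposite strand. *Cdt1*, which loads MCM2-7 together with CDC6, had the highest level per kilobase of exon of the 4 genes in the control, 861 ± 31.5 normalized counts (SD, n = 3). Its libraries held 2693, 2809, and 2612 normalized counts in control cells, 2826, 2682, and 2726 in *Rbbp4* Ins/Ins cells, and 2564, 2648, and 2345 in *Rbbp4* Ins/Del (chr8:122568015-122573554, plus strand). The groups overlapped, and the log2 fold changes of 0.022 and -0.10 did not pass (edgeR adjusted p = 0.619 and 0.0206).

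The 6 subunits of the MCM2-7 helicase did not move as a group. In each mutant 2 of them (33.3%) rose, near the 29.0% and 30.6% of all tested genes. *Mcm2* and *Mcm5* rose in both mutants, by log2 0.14 and 0.20 for *Mcm2* and by 0.21 and 0.15 for *Mcm5*. *Mcm4* fell in *Rbbp4* Ins/Del by 0.087 on the log2 scale (edgeR adjusted p = 0.00910) and missed the threshold in *Rbbp4* Ins/Ins at the nearly equal log2 fold change of -0.085 (edgeR adjusted p = 0.0112). The call in *Rbbp4* Ins/Del was lost under DESeq2 (adjusted p = 0.0231), with DESeq2's size factors, upper-quartile factors, all genes with at least 1 read, the 6 libraries compared alone, and the replicate block (edgeR adjusted p = 0.0132 to 0.05002), and without any single library other than control replicate 3 (edgeR adjusted p = 0.0118 to 0.0880). *Mcm3*, *Mcm6*, and *Mcm7* passed in neither mutant, with log2 fold changes between -0.069 and 0.024. *Mcm3* had the highest level per kilobase of exon of the ring in the control, 2367 ± 34.9 normalized counts (SD, n = 3), and *Mcm2* the lowest, 1259 ± 38.9. The exonic length used for *Mcm2*, 6956 bases, was the longest of the ring, so its place depends on that length. The *Mcm3* libraries held 9031, 8826, and 8788 normalized counts in control cells, 8668, 8727, and 8695 in *Rbbp4* Ins/Ins cells, and 8425, 8584, and 8398 in *Rbbp4* Ins/Del (chr1:20802968-20820312, minus strand). Each mutant library was below each control library, but by so little that the changes of -0.031 and -0.069 did not pass (edgeR adjusted p = 0.316 and 0.0225). Summed over the ring, the level was 2.95% higher in *Rbbp4* Ins/Ins cells and 2.26% higher in *Rbbp4* Ins/Del than in the control.

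Of the 6 genes that turn the loaded ring into the active helicase, *Mcm10*, *Gins3*, and *Gins4* rose in both mutants. These were 3 genes in each mutant, where 29.0% and 30.6% of all tested genes rose. *Cdc45*, *Gins1*, and *Gins2* passed in neither mutant. GINS is a complex of 4 small subunits, 1 from each of the 4 genes. *Gins3* (chr8:95633453-95645060, plus strand) had 238, 250.4, and 264 normalized counts across the control libraries, against 366, 366, and 399.6 in *Rbbp4* Ins/Ins cells, and 358, 392, and 361 in *Rbbp4* Ins/Del. All 6 mutant libraries were well above the control libraries, and the log2 fold change was 0.59 (standard error 0.0781, edgeR adjusted p = 1.9e-08) in *Rbbp4* Ins/Ins cells and 0.57 (standard error 0.0784, edgeR adjusted p = 4.0e-08) in *Rbbp4* Ins/Del. Per kilobase of exon *Gins3* was the lowest of the 4 GINS genes, at 92.6 ± 4.89 normalized counts in control cells, 139 ± 7.19 in *Rbbp4* Ins/Ins cells, and 137 ± 7.08 in *Rbbp4* Ins/Del (SD, n = 3 each). *Gins4* was the highest, at 858 ± 16.0, 1058 ± 12.4, and 1081 ± 34.3.

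*Gins4* (chr8:23226616-23237659, minus strand) held 1161, 1177, and 1135 normalized counts across the control libraries, against 1446, 1415, and 1421 in *Rbbp4* Ins/Ins cells, and 1427, 1511, and 1436 in *Rbbp4* Ins/Del. The mutant libraries again stood clear of the control, with log2 fold changes of 0.30 (standard error 0.0422, edgeR adjusted p = 6.3e-08) and 0.33 (standard error 0.0422, edgeR adjusted p = 6.2e-09). *Mcm10*, a factor needed for origin firing, rose by log2 0.29 and 0.19. *Gins1*, at log2 0.12 and 0.044, and *Cdc45*, at 0.12 and 0.069, did not pass. *Gins2* had log2 fold changes of -0.085 in *Rbbp4* Ins/Ins cells and 0.10 in *Rbbp4* Ins/Del, neither past the threshold. Its counts carry an uncertainty, since 67.3% of its exonic length overlaps *Gse1* on the opposite strand and the strand setting of the counting is not given in the sources used here.

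**Figure D2:**
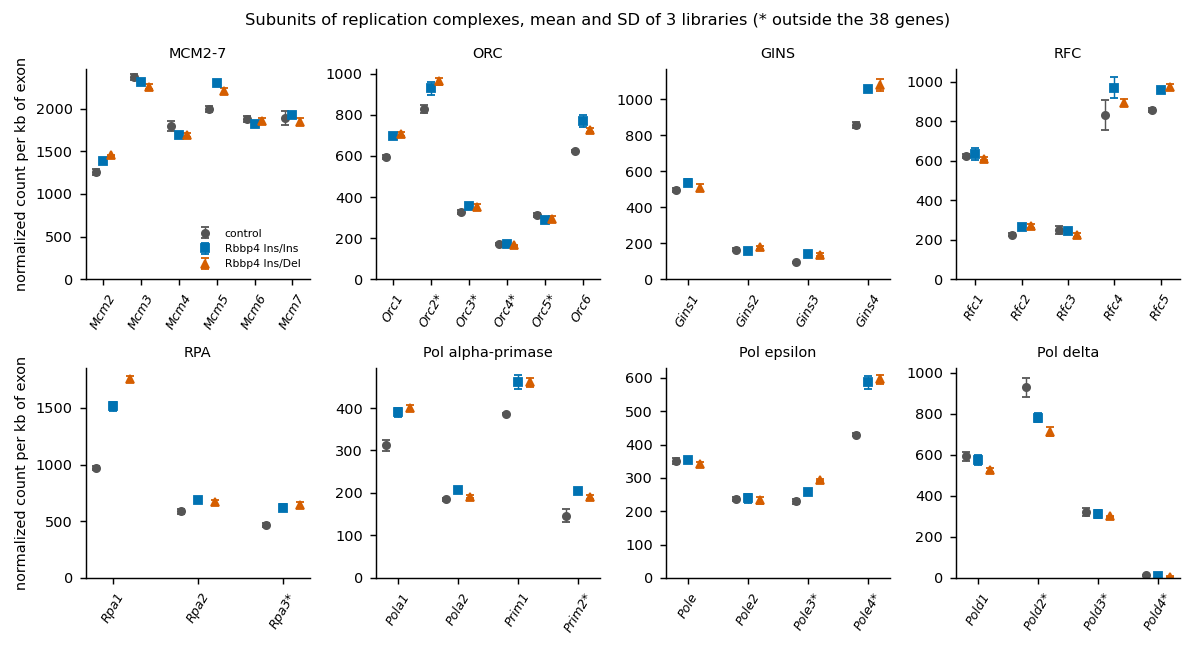
Mean normalized count per kilobase of exon (y axis, with SD bars, n = 3) of the subunits of 8 replication complexes in the control (circles), *Rbbp4* Ins/Ins (squares), and *Rbbp4* Ins/Del (triangles), where an asterisk marks a subunit that is not among the 38 genes. The 3 RPA subunits lie above the control in both mutants. Of polymerase delta, *Pold2* lies below the control in both mutants and *Pold1* in *Rbbp4* Ins/Del, whereas *Mcm3*, *Mcm6*, and *Mcm7* lie close to the control.

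Of the 6 polymerase and primase genes, 3 rose in *Rbbp4* Ins/Ins cells and 2 (33.3%) in *Rbbp4* Ins/Del. Of all tested genes, 29.0% and 30.6% rose, so the count in *Rbbp4* Ins/Del was near that of all genes. Those that rose belong to the polymerase alpha and primase complex, and no gene of polymerases epsilon and delta among the 38 rose. *Pola1*, the catalytic subunit that extends the RNA primer, had 2861, 2635, and 2759 normalized counts across the control libraries, against 3334, 3508, and 3474 in *Rbbp4* Ins/Ins cells, and 3467, 3588, and 3519 in *Rbbp4* Ins/Del. Every mutant library was above every control library, and the log2 fold change was 0.32 (standard error 0.0343, edgeR adjusted p = 1.6e-10) and 0.36 (standard error 0.0342, edgeR adjusted p = 7.7e-12). *Pola1* lies on chromosome X (chrX:93304767-93632155, minus strand), where the median log2 fold change of 531 tested genes was -0.20 in each mutant, so it moved against most genes of its chromosome. *Prim1*, the catalytic primase subunit (chr10:128015168-128030037, plus strand), held 1496, 1498, and 1496 normalized counts in control cells, 1733, 1849.5, and 1768 in *Rbbp4* Ins/Ins cells, and 1737, 1805, and 1800.4 in *Rbbp4* Ins/Del. Both mutants lay close together and above all control libraries, with log2 fold changes of 0.25 (standard error 0.0390, edgeR adjusted p = 5.5e-07) and 0.25 (standard error 0.0391, edgeR adjusted p = 4.9e-07). *Pola2*, the regulatory subunit, rose in *Rbbp4* Ins/Ins by log2 0.16 and had 0.043 in *Rbbp4* Ins/Del (edgeR adjusted p = 0.336).

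*Pold1*, the catalytic subunit of polymerase delta, which extends the lagging strand, had the highest level per kilobase of the 6 polymerase and primase genes in the control, 592 ± 22.1 normalized counts (SD, n = 3). It held 2902, 2971, and 2759.7 normalized counts across the control libraries, against 2929, 2681, and 2789.8 in *Rbbp4* Ins/Ins cells, and 2564, 2596, and 2505 in *Rbbp4* Ins/Del (chr7:44532746-44548849, minus strand). The *Rbbp4* Ins/Ins libraries overlapped the control, and all 3 *Rbbp4* Ins/Del libraries were below both. In *Rbbp4* Ins/Del it fell by 0.17 on the log2 scale (standard error 0.0363, edgeR adjusted p = 7.3e-05), and in *Rbbp4* Ins/Ins the log2 fold change was -0.038 (edgeR adjusted p = 0.357). *Pole* and *Pole2*, the catalytic subunit and a second subunit of polymerase epsilon, passed in neither mutant, with log2 fold changes between -0.044 and 0.016.

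Of the clamp and its loader, 3 of 6 genes rose in *Rbbp4* Ins/Ins cells and 2 (33.3%) in *Rbbp4* Ins/Del, where 29.0% and 30.6% of all tested genes rose, so the count in *Rbbp4* Ins/Del was near that of all genes. *Pcna* encodes the ring that holds the polymerases on DNA, and it had the highest level per kilobase of the 6 in the control, 1608 ± 33.9 normalized counts (SD, n = 3). Its libraries held 3948, 3788, and 3843 normalized counts in control cells, 3790.1, 3894, and 3965 in *Rbbp4* Ins/Ins cells, and 3661, 3699, and 3784 in *Rbbp4* Ins/Del (chr2:132249162-132253314, minus strand). The *Rbbp4* Ins/Ins libraries overlapped the control, and the *Rbbp4* Ins/Del libraries lay just below it. Its log2 fold changes were 0.0074 and -0.056 (edgeR adjusted p = 0.847 and 0.107), with intervals of 2 standard errors from -0.055 to 0.070 and from -0.12 to 0.0066. The processed copies *Pcna-ps1* and *Pcna-ps2*, on chromosomes X and 19, could share reads with *Pcna*.

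*Rfc2*, a subunit of the loader that opens the clamp (chr5:134581366-134601805, plus strand), held 1394, 1463, and 1396 normalized counts across the control libraries, against 1641, 1688, and 1676 in *Rbbp4* Ins/Ins cells, and 1663, 1756, and 1674 in *Rbbp4* Ins/Del. Each mutant library was above each control library, with log2 fold changes of 0.23 (standard error 0.0401, edgeR adjusted p = 2.9e-06) and 0.26 (standard error 0.0400, edgeR adjusted p = 3.3e-07). *Rfc5* rose by log2 0.16 and 0.18, and *Rfc4* rose in *Rbbp4* Ins/Ins by 0.22 with 0.11 in *Rbbp4* Ins/Del (edgeR adjusted p = 0.0560). The *Rfc4* libraries of both mutants overlapped the control, with 1396 normalized counts in *Rbbp4* Ins/Ins replicate 1 and 1397 in control replicate 2. Of the exonic length of *Rfc2*, *Rfc4*, and *Rfc5*, 15.1%, 12.7%, and 10.7% overlap *Lat2*, *Eif4a2*, and *Wsb2* on the opposite strand. *Rfc1*, the large subunit, and *Rfc3* passed in neither mutant, with log2 fold changes from -0.15 for *Rfc3* in *Rbbp4* Ins/Del to 0.017 for *Rfc1* in *Rbbp4* Ins/Ins.

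The largest change of the 38 genes was that of *Rpa1*, the large subunit of replication protein A (RPA), which coats single-stranded DNA at the fork. *Rpa1* (chr11:75298166-75348324, minus strand) had 5503, 5397, and 5336 normalized counts across the control libraries, against 8239, 8459.9, and 8671 in *Rbbp4* Ins/Ins cells, and 9664, 9797, and 9958 in *Rbbp4* Ins/Del. The 3 groups did not overlap, and the means were 5412 ± 84.4 (SD, n = 3), 8456 ± 216, and 9806 ± 147, a rise of 56.2% and 81.2%. The log2 fold change was 0.64 (standard error 0.0288, edgeR adjusted p = 9.3e-22) in *Rbbp4* Ins/Ins cells and 0.86 (standard error 0.0287, edgeR adjusted p = 5.4e-26) in *Rbbp4* Ins/Del. Per kilobase of exon it was also the most abundant of the RPA subunits in the mutants and in the control, at 970.3 ± 15.1 normalized counts in the control against 587 ± 24.6 for *Rpa2* (SD, n = 3 each). *Rpa2* rose by log2 0.23 and 0.19. *Rpa3*, the smallest subunit, is not among the 38 and is named because it completes the complex. It rose by log2 0.40 and 0.45, so all 3 subunits passed in both mutants, where 29.0% and 30.6% of all tested genes rose. *Rpa3* was added after its values were seen and *Rpa1* was picked for its large change, so this count is only a description.

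*Fen1*, the nuclease that trims the flaps between Okazaki fragments, rose by log2 0.23 in *Rbbp4* Ins/Ins cells and 0.14 in *Rbbp4* Ins/Del. Its count is uncertain, since 78.8% of its exonic length overlaps the antisense gene *Gm10143*. *Lig1*, the ligase that joins the fragments, passed in neither mutant, with log2 fold changes of -0.082 and -0.041 (edgeR adjusted p = 0.0169 and 0.233). Summed over *Rpa1*, *Rpa2*, *Fen1*, and *Lig1*, the level was 767 ± 15.6 CPM (SD, n = 3) in control cells, 952 ± 15.4 in *Rbbp4* Ins/Ins cells, and 1024 ± 7.94 in *Rbbp4* Ins/Del. Most of this rise was that of *Rpa1*, whose mean went from 5412 normalized counts to 8456 and 9806. The means of *Rpa2* went from 1757 to 2067 and 2000 and those of *Fen1* from 1773 to 2078 and 1957. The mean of *Lig1* went down, from 5046 to 4766 and 4907.

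All 5 genes of nucleotide supply rose in *Rbbp4* Ins/Del, where 30.6% of all tested genes rose. All but *Rrm1* (80.0%) rose in *Rbbp4* Ins/Ins, where 29.0% of all tested genes did. The summed level of the 5 genes was 735 ± 6.38 CPM (SD, n = 3) in control cells, 883 ± 7.001 in *Rbbp4* Ins/Ins cells, and 935 ± 23.6 in *Rbbp4* Ins/Del. Ribonucleotide reductase, which makes deoxynucleotides from ribonucleotides, has the large subunit RRM1 and the S-phase subunit RRM2. *Rrm2* (chr12:24708241-24714146, plus strand) had 4002, 3944, and 4019 normalized counts across the control libraries, against 5491, 5469.5, and 5599 in *Rbbp4* Ins/Ins cells, and 5551, 5642, and 5685 in *Rbbp4* Ins/Del. The replicates lay close together and the mutants far above the control, by 38.4% and 41.1%, with log2 fold changes of 0.47 (standard error 0.0293, edgeR adjusted p = 3.9e-17) and 0.50 (standard error 0.0293, edgeR adjusted p = 5.4e-18). *Rrm1* (chr7:102441695-102469771, plus strand) held 4734, 4569, and 4686 normalized counts in control cells, 4671, 4924, and 4869 in *Rbbp4* Ins/Ins cells, and 5029, 5239.6, and 5348 in *Rbbp4* Ins/Del. The control and *Rbbp4* Ins/Ins libraries overlapped, and the 3 *Rbbp4* Ins/Del libraries were above them, which gave a log2 fold change of 0.16 (standard error 0.0312, edgeR adjusted p = 2.6e-05). Per kilobase of exon, *Rrm2* was above *Rrm1* in the control, at 1439 ± 14.2 against 423 ± 7.68 normalized counts (SD, n = 3 each), and further above it in the mutants. This order depends on the exonic lengths used, 2771 bases for *Rrm2* and 11012 for *Rrm1*. Without division by length *Rrm1* was the higher in the control, at a mean of 4663 normalized counts against 3988.

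*Tk1*, the thymidine kinase that salvages thymidine in S phase, had the lowest level per kilobase of all 38 genes in the control, 76.4 ± 5.64 normalized counts (SD, n = 3). This order depends on the exonic length used, 5198 bases for *Tk1*. Without division by length *Gins3* was lower in the control, at a mean of 251 normalized counts against 397. *Tk1* held 393, 428, and 370.3 normalized counts across the control libraries, against 511, 499, and 540.2 in *Rbbp4* Ins/Ins cells, and 606, 642, and 719.7 in *Rbbp4* Ins/Del (chr11:117815526-117826092, minus strand). The 3 groups did not overlap, and the rise was 30.0% in *Rbbp4* Ins/Ins cells (log2 0.38, standard error 0.0703, edgeR adjusted p = 1.2e-05) and 65.1% in *Rbbp4* Ins/Del (log2 0.72, standard error 0.0681, edgeR adjusted p = 5.2e-12). *Tyms*, thymidylate synthase, makes thymidylate by the other route. It had 1474, 1480.1, and 1468 normalized counts across the control libraries, against 1777, 1824, and 1713 in *Rbbp4* Ins/Ins cells, and 1885, 1968, and 1969 in *Rbbp4* Ins/Del (chr5:30058202-30073617, minus strand). Its log2 fold changes were 0.26 (standard error 0.0391, edgeR adjusted p = 2.0e-07) and 0.40 (standard error 0.0387, edgeR adjusted p = 1.2e-11), and the counted copy *Tyms-ps* could share reads with it. *Dut*, the enzyme that removes dUTP (chr2:125247190-125258608, plus strand), held 2907, 2857, and 2876 normalized counts in control cells, 3509.5, 3447, and 3475 in *Rbbp4* Ins/Ins cells, and 3521, 3639.8, and 3719.9 in *Rbbp4* Ins/Del. All mutant libraries of both genes were above all control libraries, and *Dut* rose by log2 0.27 (standard error 0.0321, edgeR adjusted p = 1.5e-09) and 0.33 (standard error 0.0320, edgeR adjusted p = 8.3e-12).

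*Slbp* binds the stem-loop of replication-dependent histone messengers, which rise in S phase together with DNA synthesis. It had 1969, 1828, and 1807 normalized counts across the control libraries, against 2154, 2155, and 2020.2 in *Rbbp4* Ins/Ins cells, and 1919.8, 1969, and 1884 in *Rbbp4* Ins/Del (chr5:33634952-33652574, minus strand). The *Rbbp4* Ins/Ins libraries were above the control, whereas the *Rbbp4* Ins/Del libraries overlapped it. The log2 fold change was 0.17 (standard error 0.0393, edgeR adjusted p = 0.000190) in *Rbbp4* Ins/Ins cells and 0.041 (edgeR adjusted p = 0.356) in *Rbbp4* Ins/Del.

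**Figure D3:**
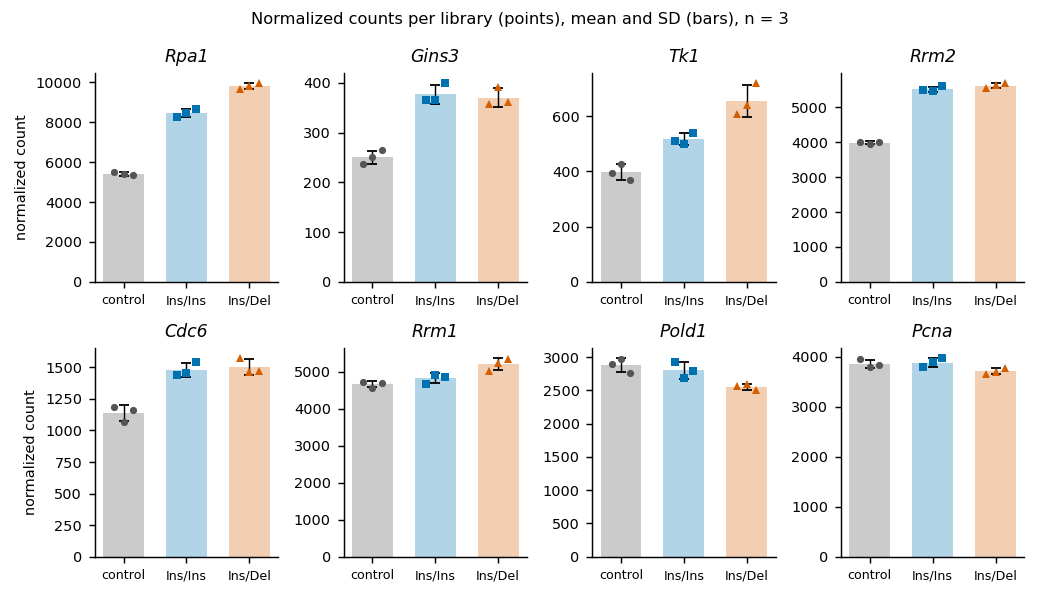
Normalized counts (y axis) of 8 DNA replication genes in the control, *Rbbp4* Ins/Ins, and *Rbbp4* Ins/Del, with a point for each library and bars for the mean and SD of 3 libraries. *Rpa1* and *Tk1* step up from the control to *Rbbp4* Ins/Ins and again to *Rbbp4* Ins/Del, *Rrm2*, *Gins3*, and *Cdc6* are raised alike in both, and *Pold1* is lower in *Rbbp4* Ins/Del only.

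Between the mutants themselves, 3 of the 38 genes were higher in *Rbbp4* Ins/Del than in *Rbbp4* Ins/Ins cells and 1 was lower, where 6.17% and 4.64% of all tested genes were. *Rpa1* was higher in *Rbbp4* Ins/Del by log2 0.21 (standard error 0.0280, edgeR adjusted p = 2.9e-07) and *Tk1* by 0.34 (standard error 0.0655, edgeR adjusted p = 0.000191). These differences kept their calls in every alternative tried. *Rrm1* was higher by log2 0.11 (edgeR adjusted p = 0.00956) and *Pold1* lower by 0.13 on the log2 scale, a log2 fold change of -0.13 (edgeR adjusted p = 0.00766), both close to the threshold. Without *Rbbp4* Ins/Ins replicate 1, for example, the edgeR adjusted p became 0.0834 for *Rrm1* and 0.0999 for *Pold1*, and either call was also lost when other mutant libraries were left out. DESeq2 called the same number higher, 3, and 0 lower. *Slbp*, *Pola2*, and *Rfc4*, which passed in *Rbbp4* Ins/Ins cells and not in *Rbbp4* Ins/Del, had log2 differences of -0.13, -0.12, and -0.11 between the mutants that did not pass (edgeR adjusted p = 0.0143, 0.0279, and 0.105). The median log2 difference of the 38 genes was -0.030, and that of all tested genes was -0.0035.

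Another 45 genes of DNA replication rose and fell about as often as all tested genes. Their list was not picked for how they moved, but it was drawn up with earlier results of these data known. In *Rbbp4* Ins/Ins 14 rose (31.1%) and 12 fell (26.7%), where 29.0% and 29.4% of all genes did. The counts for *Rbbp4* Ins/Del were 15 (33.3%) and 13 (28.9%), where 30.6% and 31.9% did, with median log2 fold changes of 0.012 and -0.044. *Wdhd1*, which links the helicase to polymerase alpha, fell from 2373 ± 68.8 normalized counts (SD, n = 3) in the control to 1318 ± 87.3 in *Rbbp4* Ins/Ins cells and 1230 ± 36.8 in *Rbbp4* Ins/Del. *Rnaseh2b*, a subunit of the enzyme that removes ribonucleotides from DNA, fell from 901 ± 34.6 to 517 ± 16.0 and 457 ± 18.9 (SD, n = 3 each). Both lie on chromosome 14, where the median log2 fold change of 461 tested genes was -0.58 in *Rbbp4* Ins/Ins cells and -0.60 in *Rbbp4* Ins/Del, and none of the 38 genes lies on this chromosome. Within complexes that the 38 cover in part, the remaining subunits went different ways, and those named next were chosen after their values were seen. *Prim2* of primase rose by log2 0.47 and 0.37 and *Pole4* of polymerase epsilon by 0.44 and 0.47, while *Pold2* of polymerase delta fell, with log2 fold changes of -0.25 and -0.38.

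**Figure D4:**
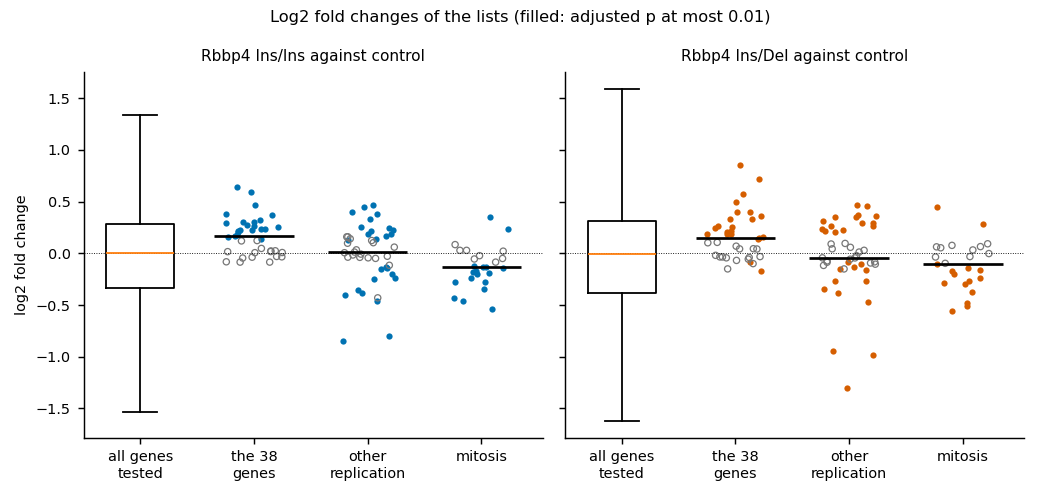
Log2 fold changes against control (y axis) of all 14125 tested genes (box from the 25th to the 75th percentile, line at the median, whiskers to the 5th and 95th percentiles), the 38 DNA replication genes, 45 other replication genes, and 25 mitosis genes, in *Rbbp4* Ins/Ins cells (left) and *Rbbp4* Ins/Del (right). Each point is a gene, filled where the adjusted p was at most 0.01, and black lines mark the medians of the lists, which for the 38 genes lie above 0 at 0.17 and 0.15.

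Mitosis genes, taken as a second list of genes of dividing cells, were more often lower than higher. Of 25 genes, 2 rose and 15 fell in *Rbbp4* Ins/Ins cells, where 29.0% and 29.4% of all tested genes did. For *Rbbp4* Ins/Del 2 rose and 13 fell, where 30.6% and 31.9% did, with median log2 fold changes of -0.13 and -0.099. Their summed level was 5000 ± 32.4 CPM (SD, n = 3) in control cells, 4481 ± 50.4 in *Rbbp4* Ins/Ins cells, and 4536 ± 40.4 in *Rbbp4* Ins/Del. *Cdc25c*, the phosphatase that triggers entry into mitosis, fell from 408 ± 6.37 normalized counts (SD, n = 3) to 279.8 ± 5.03 and 278 ± 8.29.

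Among regulators of replication genes, the calls in each direction were mostly near the share of all genes. Of 18 genes for E2F factors, pocket proteins, and their partners, 8 rose (44.4%) and 6 fell (33.3%) in *Rbbp4* Ins/Ins cells, where 29.0% and 29.4% of all tested genes did, and 7 rose and 7 fell (38.9% each) in *Rbbp4* Ins/Del, where 30.6% and 31.9% did. *E2f2*, an activating E2F, had 173, 183, and 178 normalized counts across the control libraries, against 485, 407, and 399.6 in *Rbbp4* Ins/Ins cells, and 549, 511, and 504 in *Rbbp4* Ins/Del. Every mutant library was far above the control, with log2 fold changes of 1.29 (standard error 0.0851, edgeR adjusted p = 2.2e-16) and 1.55 (standard error 0.0829, edgeR adjusted p = 2.2e-19). *Rbl2*, the pocket protein p130 of the DREAM complex, rose by log2 0.52 and 0.54. *E2f5* and *E2f6*, which act as repressors, fell, with log2 fold changes of -0.52 and -0.75 for *E2f5* and of -0.66 and -0.73 for *E2f6*. *Rb1*, the retinoblastoma protein, also fell, at -0.55 and -0.55, and lies on chromosome 14. *E2f1* rose in *Rbbp4* Ins/Ins by log2 0.16 (edgeR adjusted p = 0.00780), and had 0.021 in *Rbbp4* Ins/Del. The call was lost without control replicate 1 or 3 or *Rbbp4* Ins/Ins replicate 1 or 2 (edgeR adjusted p = 0.0108 to 0.0466), with total counts, without chromosome 14, and under DESeq2 (adjusted p = 0.0314).

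Among 8 genes of chromatin assembly and maintenance at the fork, 5 rose in each mutant, 1 fell in *Rbbp4* Ins/Ins cells, and 2 fell in *Rbbp4* Ins/Del, where 29.0% and 30.6% of all tested genes rose and 29.4% and 31.9% fell. Of the partners of RBBP4 in CAF-1, *Chaf1a* rose by log2 0.16 and 0.12. *Chaf1b* fell in *Rbbp4* Ins/Del, with a log2 fold change of -0.20 (edgeR adjusted p = 3.1e-05), and had -0.069 in *Rbbp4* Ins/Ins (edgeR adjusted p = 0.122). *Rbbp4* itself is the gene of this list that fell in *Rbbp4* Ins/Ins, to a log2 fold change of -0.84 (standard error 0.0288, edgeR adjusted p = 1.8e-25), and it had 0.050 in *Rbbp4* Ins/Del (edgeR adjusted p = 0.107).

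Markers of cell identity also moved between the control and the mutants. All 10 ESC markers were expressed in every library, and their summed level was 3745 to 3963 CPM in the control libraries, 4870 to 4896 in *Rbbp4* Ins/Ins cells, and 4898 to 5045 in *Rbbp4* Ins/Del, where *Rbbp4* Ins/Ins had 7 of 10 higher and 3 lower and *Rbbp4* Ins/Del 6 higher and 2 lower. The 6 neural progenitor markers summed to 141 to 142 CPM in the control libraries, 23.5 to 25.9 in *Rbbp4* Ins/Ins cells, and 22.3 to 24.3 in *Rbbp4* Ins/Del, with 2 of 4 tested markers lower and 0 higher in each mutant and *Neurog2* at no more than 3 reads in any library. The 8 fibroblast markers summed to 34.1 to 40.2 CPM in the control, 15.3 to 16.5 in *Rbbp4* Ins/Ins cells, and 19.5 to 21.3 in *Rbbp4* Ins/Del, with 4 of 5 tested markers lower and 1 higher in each mutant and *Lum* at no more than 3 reads in any library. The 8 primitive endoderm markers summed to 94.6 to 102 CPM in the control, 92.5 to 99.5 in *Rbbp4* Ins/Ins cells, and 128 to 129 in *Rbbp4* Ins/Del, where *Rbbp4* Ins/Ins had 1 of 7 tested markers higher and 2 lower and *Rbbp4* Ins/Del 5 higher and 2 lower. Of all tested genes, 29.0% rose and 29.4% fell in *Rbbp4* Ins/Ins, and 30.6% rose and 31.9% fell in *Rbbp4* Ins/Del. The part of these marker differences in the change of the replication genes was not tested.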

How the data were processed

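Libraries from control E14 cells and from both mutants, *Rbbp4* Ins/Ins as well as *Rbbp4* Ins/Del (3 each), were analysed by RNA-seq. Per the labels and methods, the authors extracted total RNA, made mRNA libraries, sequenced them as paired-end reads, aligned the reads to mm10 with STAR 2.7.3, and used HTSeq to count them on genes. The deposited files list a raw whole-number count for each gene symbol. The annotation, the HTSeq version, and the strand setting are not given in the sources used here, so reads of overlapping genes on opposite strands may not be separated.

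Counts were scaled with TMM (factors 0.993 to 1.02) and fitted with edgeR 4.0.16 in R 4.3.3 (filterByExpr, glmQLFit, glmQLFTest) on all 9 libraries, with 3 groups and no covariate. P-values were adjusted by Benjamini-Hochberg over the 14125 tested genes, with a threshold of 0.01, the limit in the study's methods. The standard error of a log2 fold change was its size over the root of the F statistic. Normalized counts were rescaled to the mean effective size of the 9 libraries, and levels per kilobase divide them by the union of exons in GENCODE M21 on GRCm38, where all 38 genes were found. The union takes in every annotated exon and can be longer than the RNA present. The order of different genes per kilobase therefore depends on the annotation. Promoter windows come from RefSeq on GRCm38.p6. The script was tested on simulated data. Counts over genes differed between libraries of a group by more than sampling noise (chi-square per gene 1.87 to 4.62), so no library was counted as a duplicate. Nothing says whether the libraries of a line come from separate cultures, so p-values measure only the spread between these samples, which may be technical.

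The 38 genes and the other lists were chosen with earlier results of these data known. Values in every library are given for the 12 genes with the largest mean log2 fold change among those past the threshold in both mutants, those past it between the mutants, and the highest per kilobase of each role. Genes of other lists are named when past the threshold with an absolute log2 fold change of at least 0.5 in both mutants (at most 5 a list), and *Rbbp4*, *Chaf1a*, *Chaf1b*, and *E2f1* always. *Rpa3*, *Prim2*, *Pole4*, and *Pold2* were added after their values were seen. The alternatives tried were DESeq2 1.42.0, its size factors in edgeR, scaling by total counts, upper-quartile factors, all genes with at least 1 read, the 6 libraries compared alone, a block for the replicate number, leaving out each library, a threshold of 0.05, and counts without chromosome 14.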

Additional observations from a re-analysis of the deposited data

Results flagged for a closer look

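The genes in this paragraph differed between the mutants by a direct test, edgeR's quasi-likelihood test of *Rbbp4* Ins/Del against *Rbbp4* Ins/Ins with Benjamini-Hochberg adjustment. *Rpa1* was higher in *Rbbp4* Ins/Del by log2 0.21 (adjusted p = 2.9e-07) and *Tk1* by log2 0.34 (adjusted p = 0.000191), each with all 3 *Rbbp4* Ins/Del libraries above all 3 *Rbbp4* Ins/Ins libraries. *Rrm1* was higher by log2 0.11 (adjusted p = 0.00956), and *Pold1* had a log2 difference of -0.13 (adjusted p = 0.00766). *E2f2* was higher by log2 0.27 (adjusted p = 0.00638). *Rbbp4* itself was higher by log2 0.89 (adjusted p = 4.1e-24), from 5604 ± 153 normalized counts (SD, n = 3) in *Rbbp4* Ins/Ins to 10359 ± 238 in *Rbbp4* Ins/Del. The calls of *Rrm1*, *Pold1*, and *E2f2* were lost when single libraries were left out, and those of *Pold1* and *E2f2* also under DESeq2 with all libraries (adjusted p = 0.0279 and 0.0246), whereas those of *Rpa1*, *Tk1*, and *Rbbp4* did not change when any library was left out. No group held enough libraries for a check of outlying samples.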

How the results depend on the processing

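Of the alternatives computed for single genes, 2678 kept the side of the threshold, 41 lost the call, and 26 gained it. Of changes that passed in the main fit or the alternative, 0 reversed. Some small changes that passed in neither did change sign, such as *Pcna* in *Rbbp4* Ins/Ins cells (log2 -0.0065 to 0.027 with all libraries kept). No scaling moved the median of all tested genes by more than 0.1 on the log2 scale. The counts of DNA replication genes that rose against the control stayed at 22 to 23 in *Rbbp4* Ins/Ins and 20 to 21 in *Rbbp4* Ins/Del when each library was left out. The few genes that fell were the least stable. In *Rbbp4* Ins/Ins their number, 0, became 1 with DESeq2's size factors and 2 with total counts, without chromosome 14, and at a threshold of 0.05, and ranged from 0 to 1 over the libraries left out. In *Rbbp4* Ins/Del their number, 2, became 1 with DESeq2's size factors, upper-quartile factors, DESeq2, all genes with at least 1 read, the 6 libraries compared alone, and the replicate block, 5 with total counts and at a threshold of 0.05, and 4 without chromosome 14, and ranged from 1 to 3 over the libraries left out. *Pold1* kept its call in each of these, whereas *Mcm4* kept it with total counts, without chromosome 14, and without control replicate 3, and lost it in the others at the threshold of 0.01. The median log2 fold change of the 38 genes in *Rbbp4* Ins/Ins, 0.17, was 0.15 with total counts, 0.19 with upper-quartile factors, 0.17 with all genes with at least 1 read, 0.16 without chromosome 14, and 0.17 to 0.19 over the libraries left out. In *Rbbp4* Ins/Del, 0.15, it was 0.13 with total counts, 0.17 with upper-quartile factors, and 0.14 to 0.16 over the libraries left out. Between the mutants, the 3 genes that were higher became 2 with all genes with at least 1 read (*Rrm1* at adjusted p = 0.0101 in edgeR) and with the replicate block, 4 with DESeq2's size factors and the 6 libraries compared, and 5 at a threshold of 0.05, and ranged from 2 to 3 over the libraries left out. The 1 that was lower became 0 with DESeq2's size factors and DESeq2, 3 with all genes with at least 1 read, 2 with the 6 libraries compared, and 5 at a threshold of 0.05, and ranged from 0 to 2 over the libraries left out. The median difference was -0.019 with DESeq2's size factors, -0.021 with DESeq2, and -0.034 to -0.0068 over the libraries left out. Of the other 45 replication genes, the 1 higher between the mutants became 2 with DESeq2's size factors, all genes with at least 1 read, and the 6 libraries compared, and 5 at a threshold of 0.05, and ranged from 0 to 2 over the libraries left out. The 1 lower became 0 with DESeq2's size factors, DESeq2, and the replicate block, and 6 at a threshold of 0.05, and ranged from 0 to 1 over the libraries left out. Counts without chromosome 14 were added after the data were seen. Where these calls changed, the cause was not tested.

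Groups share the replicate numbers 1 to 3, but deviations of same-numbered libraries correlated only between -0.028 and 0.056, so the numbers were not taken to pair the samples. With the replicate block, *Rrm1* missed the threshold between the mutants (adjusted p = 0.0120 in edgeR).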
